A study of Homo sapiens with 4 samples.

Results

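The genes that encode FOXM1, the MYB proteins A-MYB and B-MYB, and the core of the MuvB complex were followed in bladder cancer cells treated with OICR-9429. They were chosen by gene symbol and are 8 of the 31319 genes in the tables: FOXM1, MYBL1 (A-MYB), MYBL2 (B-MYB) and the 5 core subunits LIN9, LIN37, LIN52, LIN54 and RBBP4. RNA was sequenced from T24 cells given 140 µM OICR-9429 for 48 h, T24 cells given DMSO, UM-UC-3 cells given 140 µM OICR-9429 for 48 h, and UM-UC-3 cells given DMSO, with 1 library for each of these 4 groups. T24 and UM-UC-3 are established lines of human bladder cancer, and OICR-9429, dissolved in DMSO, occupies the pocket of WDR5 to which the histone methyltransferase MLL1 binds. The lines were grown in different media, so line and medium cannot be told apart. The study used this comparison to ask which genes depend on WDR5 in bladder cancer cells.

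MuvB is a scaffold that changes partners through the cell cycle. In resting cells it joins the pocket proteins p107 or p130 with E2F4 or E2F5 and a DP protein to form DREAM, which represses cell cycle genes. In cycling cells the pocket proteins leave, B-MYB binds MuvB in S phase, and FOXM1 joins later to activate the genes of G2 and mitosis. LIN54 is the subunit that touches DNA, at an element called the cell cycle genes homology region, or CHR. MYBL2 and FOXM1 are themselves cell cycle genes, MYBL2 being switched on by E2F at the G1/S boundary.

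Levels are given in FPKM, reads scaled to the exon length of the gene and to the size of the library, so that genes of different length can be set side by side. The deposited FPKM values of all 8 genes could be worked back to whole reads, and the interval after a level is an exact Poisson 95% interval on those reads, which covers counting error only. The read totals behind the FPKM values, also worked back, were 28209432 to 29335051 per library, so these totals differed little. Calls within a line required that FPKM + 0.5 differ at least 2-fold and that 1 of the 2 libraries reach an FPKM of 1. This is a rule of size without a test, because each line had 1 library per condition. The change shared by both lines was tested with limma on log2(FPKM + 0.5), with the lines as the only replication and 1 residual degree of freedom per gene.

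Markers of the cell type were read as a check on the labels. Of 15 epithelial and urothelial markers, 13 were in the tables. The keratins KRT8 and KRT18 were present in all 4 libraries (14.6 to 91.3 FPKM) and PPARG at 1.55 to 6.93 FPKM. UPK1A, UPK1B, UPK2, KRT20, GATA3, KRT5, KRT19, TP63 and CDH1 did not exceed 0.810 FPKM, and KRT7 reached 2.46 FPKM in the DMSO library of T24. Some of these markers moved with the treatment. KRT8 was called lower in both lines and passed limma with an adjusted p of 0.033, KRT7 was called lower in T24 and KRT18 in UM-UC-3, and PPARG was called higher in each line. The summed level of the list was 105 FPKM with OICR-9429 against 170 FPKM with DMSO in T24, and 36.7 FPKM against 109 FPKM in UM-UC-3. The 4 mesenchymal markers VIM, CDH2, ZEB1 and FN1 were all detected and summed to 100.4 FPKM with OICR-9429 against 60.8 FPKM with DMSO in T24, but to 106 FPKM against 220.1 FPKM in UM-UC-3. VIM and CDH2 were called lower in UM-UC-3 and FN1 higher in T24. Of 8 markers of blood, vessel, liver and muscle cells, the 5 in the tables, PECAM1, ALB and HBB among them, did not exceed 0.320 FPKM. The part of these marker changes in the results for the 8 genes was not tested.

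The genes fell into 3 patterns. Both activators at the head of the mitotic program, MYBL2 and FOXM1, were lower by the widest margin, MYBL2 31.1-fold in T24 and 53.8-fold in UM-UC-3, FOXM1 9.40-fold and 21.3-fold. MYBL1 and LIN9 were lower by a smaller factor in both lines, 3.30-fold to 4.54-fold. The core subunits LIN52, LIN54 and RBBP4 were not called in either line, and LIN37 was too low to be called. In all, 4 of the 8 genes were called lower in T24, where the rule called 13.5% of all genes that could be called lower. The same 4 were called lower in UM-UC-3, against 12.1% of all such genes there. They were thus 4 of 8 called lower in both lines, or 4 of the 7 that could be called, against 6.32% of all genes callable in both. None was called higher, against a background of 6.93% for T24, 14% for UM-UC-3 and 2.67% for both. In limma, FOXM1 and MYBL2 passed an adjusted p of 0.05 with a lower level, 2 of the 7 genes tested, against 3.11% of all genes tested. None of the 7 was higher in limma, against 0.811% of all genes. When the libraries were rescaled by median ratio or trimmed mean, MYBL1 and LIN9 passed limma as well. MYBL1 also passed with a pseudocount of 0.1, and LIN9 also passed when every library had to reach 1 FPKM, a setting that left MYBL1 and MYBL2 untested. Without the cell line term or without the FPKM minimum none of the genes passed.

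**Figure D1:**
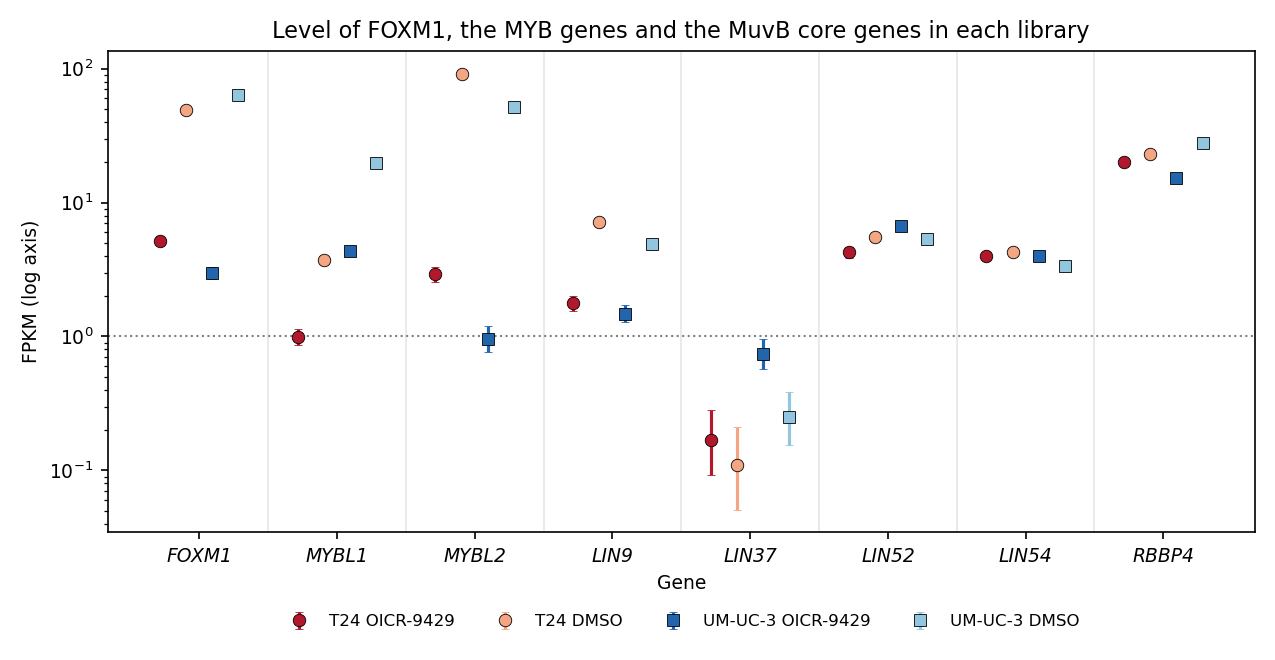
FPKM of each gene (log axis) in the OICR-9429 and DMSO libraries of T24 (circles) and UM-UC-3 (squares), 1 library per point, with exact Poisson 95% intervals for counting error (often smaller than the point) and a dotted line at 1 FPKM. MYBL2 stood at 2.93 and 0.962 FPKM with OICR-9429 against 91.3 and 51.8 FPKM in DMSO, while LIN54 stayed between 3.39 and 4.31 FPKM in all 4 libraries.

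MYBL2 (chromosome 20) encodes B-MYB, the transcription factor that docks on MuvB in S phase. It was measured at 2.93 FPKM (2.57 to 3.33, 239 reads) in T24 with OICR-9429, against 91.3 FPKM (89.2 to 93.4, 7319 reads) in T24 with DMSO. In UM-UC-3 it was at 0.962 FPKM (0.761 to 1.20, 78 reads) with OICR-9429, against 51.8 FPKM (50.2 to 53.4, 4055 reads) with DMSO. Both treated libraries were far below both DMSO libraries. The ratios were 31.1-fold lower (27.4 to 35.6) in T24 and 53.8-fold lower (43.0 to 68.2) in UM-UC-3. Ranked by the size of the fall, MYBL2 was number 3 of 12638 genes in T24 and number 4 of 13086 in UM-UC-3. In limma the mean change was -4.95 (SE 0.27) on the log2 scale with an adjusted p of 0.0053, and no other of the 12584 genes had a smaller unadjusted p.

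FOXM1 (chromosome 12) encodes the forkhead factor that reaches mitotic promoters together with B-MYB and MuvB. Its level was 5.20 FPKM (4.83 to 5.58, 747 reads) in T24 with OICR-9429, against 48.9 FPKM (47.7 to 50.0, 6909 reads) with DMSO. In UM-UC-3 it was 2.98 FPKM (2.70 to 3.28, 426 reads) with OICR-9429, against 63.6 FPKM (62.2 to 64.9, 8784 reads) with DMSO. Under OICR-9429 the gene was lower in UM-UC-3 than in T24, and under DMSO it was higher in UM-UC-3 than in T24. The ratio was 9.40-fold lower (8.72 to 10.2) in T24 and 21.3-fold lower (19.4 to 23.6) in UM-UC-3, and these counting intervals did not overlap. Whether the lines differ in this response could not be tested with 1 library each. The mean change in limma was -3.66 (SE 0.34) on the log2 scale, with an adjusted p of 0.0073.

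MYBL1 (chromosome 8) encodes A-MYB, a close relative of B-MYB best known for its role in male germ cells. It was at 0.989 FPKM (0.860 to 1.13, 210 reads) in T24 with OICR-9429, against 3.70 FPKM (3.44 to 3.97, 773 reads) with DMSO. UM-UC-3 cells had more of it, 4.32 FPKM (913 reads) with OICR-9429 and 19.6 FPKM (4004 reads) with DMSO. The treated UM-UC-3 library therefore lay above the DMSO library of T24, and the conditions overlapped across the lines though not within them. UM-UC-3 exceeded T24 by a factor of 4.37 with OICR-9429 and 5.30 with DMSO, the widest gap between the lines among the genes above 1 FPKM in most libraries. Within the lines MYBL1 was 3.74-fold lower (3.21 to 4.38) in T24 and 4.54-fold lower (4.22 to 4.88) in UM-UC-3. The limma mean of -1.78 (SE 0.34) on the log2 scale did not pass the threshold, with an adjusted p of 0.053.

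The balance between both MYB genes differed along with their sum. MYBL1 and MYBL2 together amounted to 3.92 FPKM in T24 with OICR-9429 and 95.01 FPKM with DMSO. In UM-UC-3 their sum was 5.28 FPKM with OICR-9429 and 71.4 FPKM with DMSO. MYBL1 made up 25.2% of that sum in treated T24 cells and 3.89% in DMSO. It made up 81.8% in treated UM-UC-3 cells and 27.5% in DMSO, so that MYBL1 was the more abundant MYB transcript in 1 library only, UM-UC-3 with OICR-9429. The founding family member MYB, which drives blood progenitors, was scarce throughout, at 0.0372 with OICR-9429 against 0.429 FPKM with DMSO in T24 cells, and at 0.0187 with OICR-9429 against 0.419 FPKM with DMSO in UM-UC-3 cells. These ratios were 11.5-fold lower (5.03 to 32.5) and 22.4-fold lower (7.34 to 112), but MYB was below the minimum and could not be called.

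Of the MuvB core, LIN9 (chromosome 1) was the exception. LIN9 is the subunit that, with LIN52, forms the docking surface for B-MYB. It was at 1.77 FPKM (1.55 to 2.02, 231 reads) in T24 with OICR-9429, against 7.13 FPKM (6.67 to 7.61, 914 reads) with DMSO. In UM-UC-3 it was at 1.48 FPKM (1.28 to 1.71, 192 reads) with OICR-9429, against 4.89 FPKM (4.51 to 5.29, 613 reads) with DMSO. Both treated libraries lay below both DMSO libraries, by 4.02-fold (3.48 to 4.67) in T24 and 3.30-fold (2.80 to 3.90) in UM-UC-3. LIN9 was called lower in both lines, but its limma mean of -1.60 (SE 0.34) on the log2 scale had an adjusted p of 0.068. It was the only 1 of the 5 core subunits that the size rule called.

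LIN52 and LIN54 differed in direction between the lines, by small factors. LIN52 (chromosome 14), whose phosphorylation by DYRK1A favours DREAM assembly, was at 4.25 FPKM (460 reads) in T24 with OICR-9429 and 5.51 FPKM (587 reads) with DMSO, a ratio of 0.771 (0.681 to 0.873). In UM-UC-3 it was at 6.72 FPKM (724 reads) with OICR-9429 and 5.38 FPKM (560 reads) with DMSO, a ratio of 1.25 (1.12 to 1.40). The treated libraries were thus the lowest and the highest of the 4. LIN54 (chromosome 4), the DNA-binding subunit, was at 3.99 FPKM (792 reads) in T24 with OICR-9429 and 4.31 FPKM (842 reads) with DMSO, a ratio of 0.925 (0.839 to 1.02) whose interval includes 1. It was at 3.97 FPKM (785 reads) in UM-UC-3 with OICR-9429 and 3.39 FPKM (647 reads) with DMSO, a ratio of 1.17 (1.06 to 1.30). Neither passed limma, with an adjusted p of 0.98 for LIN52 and 0.95 for LIN54.

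RBBP4 (chromosome 1) encodes a histone-binding WD40 protein that MuvB shares with several chromatin complexes, and it was the most abundant core transcript. It was at 20.2 FPKM (19.6 to 20.7, 5600 reads) in T24 with OICR-9429 and 23.0 FPKM (22.4 to 23.6, 6290 reads) with DMSO, 1.14-fold lower (1.10 to 1.18). In UM-UC-3 it was at 15.3 FPKM (14.8 to 15.8, 4227 reads) with OICR-9429 and 28.0 FPKM (27.3 to 28.6, 7472 reads) with DMSO, 1.83-fold lower (1.76 to 1.90). Both treated libraries lay below both DMSO libraries, under the 2-fold limit in each line. The limma mean was -0.52 (SE 0.27) on the log2 scale, with an adjusted p of 0.32. In GENCODE 29, 18% of its exon bases also belong to SYNC on the other strand, as 15.9% of those of FOXM1 belong to ITFG2, and the strand setting of the counting is not given in the sources used here. SYNC was listed at 0 in both T24 libraries. In UM-UC-3 SYNC was at 0.462 FPKM (47 reads) with OICR-9429 and 1.40 FPKM (138 reads) with DMSO. ITFG2 stood at 2.35 to 4.08 FPKM in the 4 libraries. The part of these overlaps in the levels of RBBP4 and FOXM1 was not tested.

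LIN37 (chromosome 19), a subunit needed for repression by DREAM, was the 1 gene of the 8 that did not reach the minimum for a call. It had 0.169 FPKM (14 reads) in T24 with OICR-9429 and 0.111 FPKM (9 reads) with DMSO. In UM-UC-3 it had 0.741 FPKM (61 reads) with OICR-9429 and 0.251 FPKM (20 reads) with DMSO, a ratio of 2.95 (1.75 to 5.16). In GENCODE 29, 54% of its exon bases are shared with other genes, 26.7% on its own strand with AD000671.1 and 41.8% on the other strand with AD000671.3. Counting programs of the HTSeq kind can leave out reads that fall in more than 1 gene. The part of this overlap in the low level of LIN37 was not tested.

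**Figure D2:**
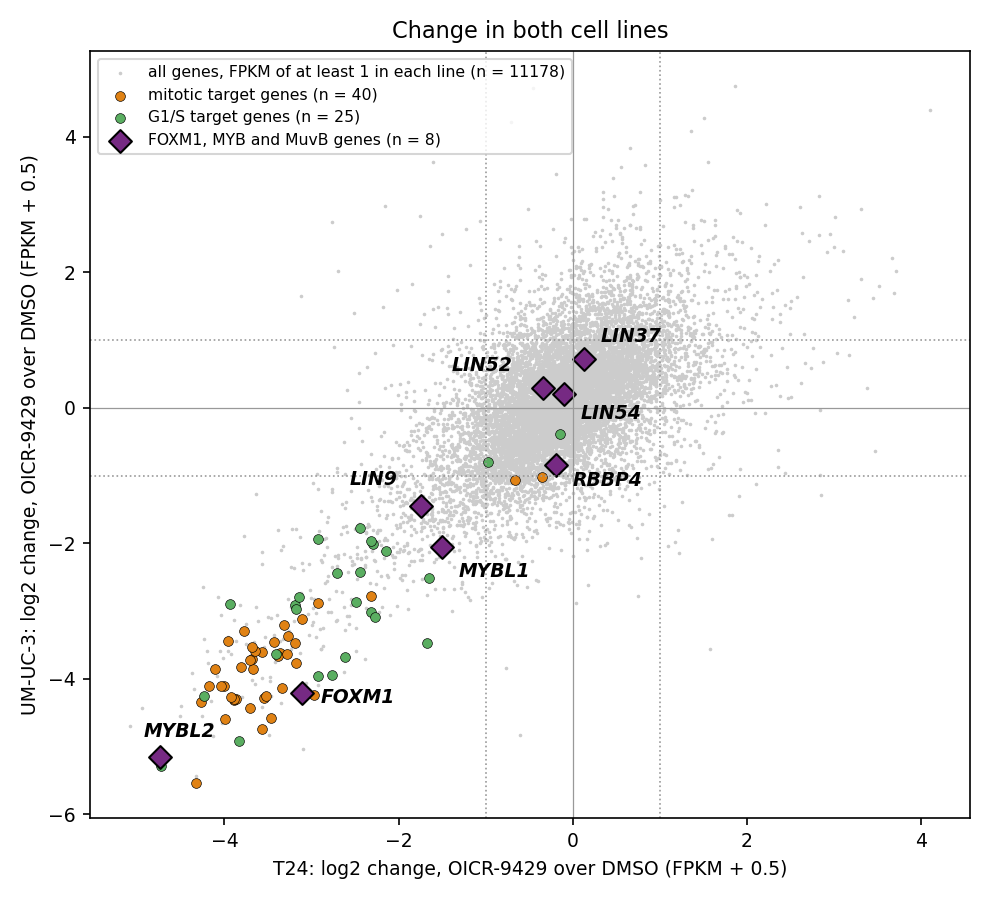
Log2 change, OICR-9429 over DMSO in FPKM + 0.5, in T24 (horizontal axis) and UM-UC-3 (vertical axis) for the 8 genes (diamonds), 40 mitotic target genes, 25 G1/S target genes and all 11178 genes that could be called in both lines (grey), with dotted lines at the 2-fold limits. FOXM1 lay at -3.11 and -4.20, among the mitotic target genes. MYBL2 lay at -4.74 and -5.16, in T24 below the lowest mitotic target gene (-4.33). LIN52, LIN54 and RBBP4 lay inside the 2-fold limits of both lines. LIN37 also lay inside them but was too low to be called.

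The order of the genes by level differed between the conditions. In T24 with OICR-9429 it was RBBP4, FOXM1, LIN52, LIN54, MYBL2, LIN9, MYBL1 and LIN37, in which the counting intervals of LIN52 (3.87 to 4.65 FPKM) and LIN54 (3.72 to 4.28 FPKM) overlapped. In T24 with DMSO it was MYBL2, FOXM1, RBBP4, LIN9, LIN52, LIN54, MYBL1 and LIN37. In UM-UC-3 with OICR-9429 it was RBBP4, LIN52, MYBL1, LIN54, FOXM1, LIN9, MYBL2 and LIN37, with overlapping intervals for MYBL1 and LIN54 and for MYBL2 and LIN37. In UM-UC-3 with DMSO it was FOXM1, MYBL2, RBBP4, MYBL1, LIN52, LIN9, LIN54 and LIN37, with overlapping intervals for LIN52 and LIN9. RBBP4 was the most abundant of the 8 in both treated libraries and the third in both DMSO libraries.

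Ratios of FPKM within a library describe the same shift. MYBL2 stood to LIN9, its docking partner, as 1.65 to 1 in T24 with OICR-9429 and 12.8 to 1 with DMSO. In UM-UC-3 it was 0.650 with OICR-9429 and 10.6 with DMSO. MYBL2 was therefore above LIN9 in 3 libraries and below it in treated UM-UC-3 cells. FOXM1 over MYBL2 went the other way, 1.77 with OICR-9429 and 0.535 with DMSO in T24, and 3.10 with OICR-9429 and 1.23 with DMSO in UM-UC-3, as MYBL2 was lower by the wider margin. Inside the core, LIN9 over LIN52 was 0.417 with OICR-9429 and 1.29 with DMSO in T24, and 0.220 with OICR-9429 and 0.910 with DMSO in UM-UC-3. RBBP4 over LIN9 was 11.4 with OICR-9429 and 3.23 with DMSO in T24, and 10.3 with OICR-9429 and 5.72 with DMSO in UM-UC-3. Transcript ratios say nothing of how much protein each subunit had.

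**Figure D3:**
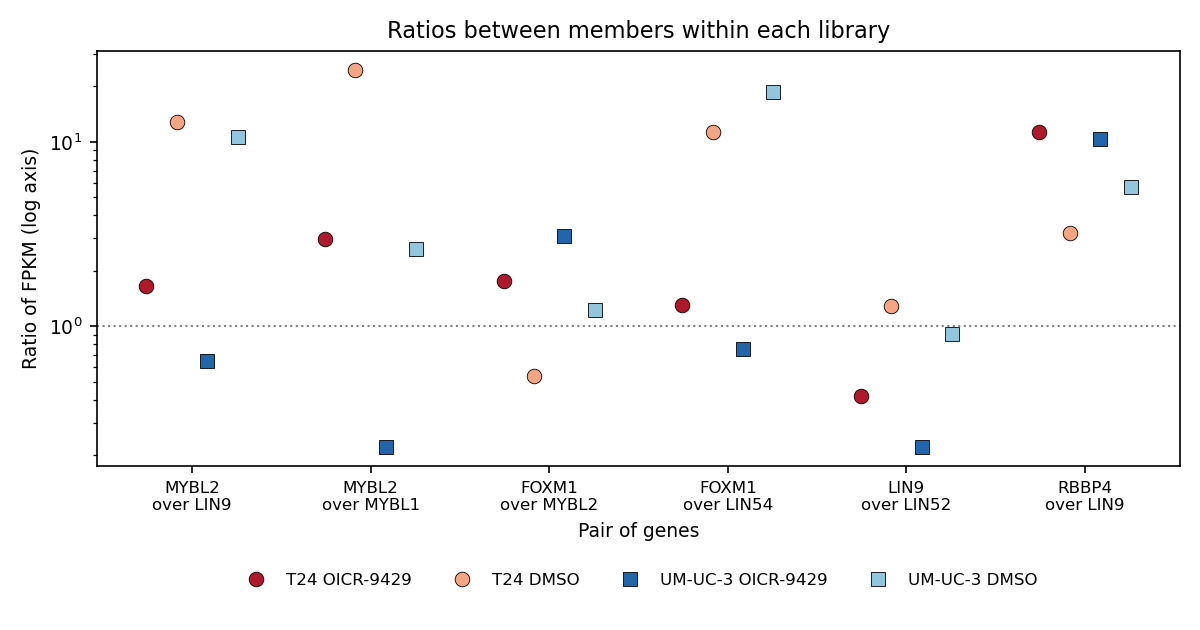
Ratio of FPKM (log axis) for 6 pairs of genes within each of the 4 libraries, with a dotted line at 1. MYBL2 over LIN9 and FOXM1 over LIN54 were lower with OICR-9429 than with DMSO in both lines, while FOXM1 over MYBL2 and RBBP4 over LIN9 were higher.

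Promoter sequences were set beside these changes for the members listed in the RefSeq promoter table of GRCh38.p14, 6 of the 8: MYBL2, LIN9, LIN37, LIN52, LIN54 and RBBP4. Windows of 250 bases before to 50 bases after each start were searched on both strands for TTTGAA and TTCGAA (CHR), TTTCCCGC, TTTCGCGC, TTTGCCGC and TTTGGCGC (E2F), CCAAT (the CCAAT box), GTAAACA (forkhead) and CAACNG (MYB). A further E2F string, TTGGCGGG, was added after the windows had been seen. The 250 bases before the start of MYBL2, LIN54 and LIN52 are shown as examples. MYBL2 had the widest fall of the 8, and LIN54 and LIN52 were not called. Of the E2F strings, LIN52 held a planned one, and MYBL2 and LIN54 held only the added one. Capitals mark the searched strings, and each is written 5′ to 3′ on the strand of its gene, MYBL2 at chr20:43666864-43667113 (+), LIN54 at chr4:83010835-83011084 (-) and LIN52 at chr14:74084706-74084955 (+).
MYBL2: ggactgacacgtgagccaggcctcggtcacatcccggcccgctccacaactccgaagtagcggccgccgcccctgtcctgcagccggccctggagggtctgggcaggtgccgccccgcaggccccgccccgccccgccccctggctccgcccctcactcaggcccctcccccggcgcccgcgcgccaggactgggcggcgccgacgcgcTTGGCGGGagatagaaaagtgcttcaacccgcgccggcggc
LIN54: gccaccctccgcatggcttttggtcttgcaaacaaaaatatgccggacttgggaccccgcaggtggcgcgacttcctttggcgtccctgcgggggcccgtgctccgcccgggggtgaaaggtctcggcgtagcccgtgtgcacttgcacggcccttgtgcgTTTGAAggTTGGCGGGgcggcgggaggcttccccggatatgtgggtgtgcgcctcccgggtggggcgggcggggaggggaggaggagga
LIN52: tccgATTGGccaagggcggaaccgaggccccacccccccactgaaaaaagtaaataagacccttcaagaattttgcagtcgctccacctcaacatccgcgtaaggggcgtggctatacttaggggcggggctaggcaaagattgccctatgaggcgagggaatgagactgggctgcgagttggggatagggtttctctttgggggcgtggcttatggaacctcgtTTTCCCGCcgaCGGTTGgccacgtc
The MYBL2 window held TTGGCGGG at 41 to 34 bases before the start and no match to the other strings. The LIN54 window held the same TTGGCGGG, 81 to 74 bases before its start, with a TTTGAA just ahead of it at 89 to 84 bases before the start. TTGGCGGG was in 1.2% and TTTGAA in 15.2% of the 35116 promoter windows of the table. The LIN52 window held TTTCCCGC 25 to 18 bases before the start (1.63% of all windows), CGGTTG, which is CAACNG on the other strand, 14 to 9 bases before it (32.9%), and ATTGG, which is CCAAT on the other strand, near its far end (34.6%). LIN9 had TTCGAA (1.45%) 60 to 55 bases before 1 of its 3 starts and TTTGAA across that start, with CAACNG 40 to 45 bases after it, LIN37 had TTTGAA before 1 of its 2 starts and CCAAT before the other, and RBBP4 had CCAAT before both of its starts. GTAAACA (3.42%) was in none of them. A match of this kind is a string of letters. TTGGCGGG, shared by MYBL2 and LIN54, was picked after the windows had been seen, so its presence there is no result of the search. The part of any of these strings in the changes was not tested.

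Some of the genes share a start region with a neighbour on the other strand. RHNO1, which encodes a partner of the 9-1-1 DNA damage clamp, starts 897 bases from FOXM1 and overlaps its span, without shared exon bases. It was at 7.61 FPKM in T24 with OICR-9429 and 30.3 FPKM with DMSO, and at 6.27 FPKM in UM-UC-3 with OICR-9429 and 17.5 FPKM with DMSO. RHNO1 met the size rule in each line and fell in limma, with a mean of -1.67 (SE 0.28) on the log2 scale and an adjusted p of 0.037. TULP3, a ciliary trafficking gene that starts 68 bases from FOXM1, did not follow: it was at 28.9 FPKM with OICR-9429 and 37.9 FPKM with DMSO in T24, and at 55.0 FPKM with OICR-9429 and 19.1 FPKM with DMSO in UM-UC-3, a call of higher there. ALDH6A1, a mitochondrial dehydrogenase gene 303 bases from LIN52, was at 0.735 with OICR-9429 against 1.03 FPKM with DMSO in T24 cells, and at 2.06 with OICR-9429 against 0.584 FPKM with DMSO in UM-UC-3 cells. ZBTB8OS, 239 bases from RBBP4, was not called, at -0.42 on the log2 scale in T24 against -0.27 in UM-UC-3. THAP9, which overlaps the span of LIN54 without shared exon bases, was not called, at -0.75 on that scale in T24 against 0.61 in UM-UC-3.

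Among the partners that make MuvB a repressor, RBL1 was the 1 gene called in both lines, beside 6.32% of all genes called lower in both. RBL1 encodes p107 and is itself an E2F target. It was at 2.94 FPKM in T24 with OICR-9429 and 11.8 FPKM with DMSO, and at 1.67 FPKM in UM-UC-3 with OICR-9429 and 12.2 FPKM with DMSO, a limma mean of -2.20 (SE 0.35) on the log2 scale with an adjusted p of 0.033. Of the 7 DREAM partners, 1 was called lower in T24 cells, 2 were in UM-UC-3 cells and 1 passed limma, beside 13.5%, 12.1% and 3.11% of all genes, and the median log2 changes were -0.62 for T24 and 0.46 for UM-UC-3, beside -0.15 and 0.09 for all genes that could be called. RBL2, which encodes p130, the pocket protein of resting cells, was at 10.9 with OICR-9429 against 16.9 FPKM with DMSO in T24 cells, and at 8.84 with OICR-9429 against 5.57 FPKM with DMSO in UM-UC-3 cells. E2F4 was abundant in every library, at 42.0 with OICR-9429 against 43.3 FPKM with DMSO in T24 cells, and at 63.8 with OICR-9429 against 46.2 FPKM with DMSO in UM-UC-3 cells. TFDP1, the main DP partner, was called lower in UM-UC-3, at 49.9 FPKM with OICR-9429 against 107 FPKM with DMSO. E2F5 was called higher there, at 4.96 FPKM against 1.97 FPKM, beside 14% of all genes called higher in UM-UC-3. RBL2 and E2F5 were singled out after their values were seen.

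Of the 12 listed genes for kinases and ligases that act on FOXM1 or B-MYB, 7 met the size rule for lower in each line. These were CCNA2, CDK2, CDK1, PLK1, MELK, CCNF and SKP2, and all 7 fell in limma. The shares of all genes called lower were 13.5% in T24, 12.1% in UM-UC-3, 6.32% in both and 3.11% in limma. CCNA2, the cyclin whose kinase releases the activity of B-MYB and FOXM1, was at 4.02 FPKM in T24 with OICR-9429 and 66.5 FPKM with DMSO, and at 2.05 FPKM in UM-UC-3 with OICR-9429 and 49.9 FPKM with DMSO. CDK1 was at 2.72 with OICR-9429 against 57.9 FPKM with DMSO in T24 cells, and at 1.65 with OICR-9429 against 36.5 FPKM with DMSO in UM-UC-3 cells. The G1 genes CCND1, CDK4 and CDK6 were not called, nor was FZR1. CCND1, which encodes cyclin D1, was at 178 FPKM with OICR-9429 and 128 FPKM with DMSO in T24, and at 99.4 FPKM with OICR-9429 and 159 FPKM with DMSO in UM-UC-3.

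The genes that B-MYB, MuvB and FOXM1 are known to activate were lower as well. CCNA2, CDK1 and PLK1 are in this list and in that of the kinases and ligases. Of 40 mitotic target genes, UM-UC-3 had all 40 called lower, T24 had 38 of them, and 38 fell in limma. Among all genes the shares were 12.1% in UM-UC-3, 13.5% in T24 and 3.11% in limma. The median log2 changes were -3.61 in T24 and -3.80 in UM-UC-3, beside -0.15 and 0.09 for all genes. CDC20, the mitotic activator of the anaphase-promoting complex, was at 15.9 with OICR-9429 against 172 FPKM with DMSO in T24 cells, and at 18.2 with OICR-9429 against 238 FPKM with DMSO in UM-UC-3 cells. AURKB, the kinase of the chromosomal passenger complex, was at 2.97 with OICR-9429 against 69.2 FPKM with DMSO in T24 cells, and at 0.627 with OICR-9429 against 51.8 FPKM with DMSO in UM-UC-3 cells. TPX2, a spindle assembly factor, had log2 changes of -3.69 and -3.71, and DLGAP5, which stabilises kinetochore fibres, had -4.27 and -4.34. The exceptions in T24 were CDC25B, at -0.67 on the log2 scale in T24 against -1.06 in UM-UC-3, and CKS2, at -0.35 against -1.02. MYBL2 changed more than the median mitotic target in both lines, and FOXM1 less than that median in T24 and more in UM-UC-3.

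The G1/S genes, which E2F and DREAM control, were lower too, with 23 of 25 called lower in each line and in both, and 23 lower in limma. The shares of all genes were 13.5% in T24, 12.1% in UM-UC-3, 6.32% in both and 3.11% in limma. The medians were -2.61 and -2.89, beside -0.15 and 0.09 for all genes. RRM2, a ribonucleotide reductase subunit, was at 2.61 with OICR-9429 against 82.0 FPKM with DMSO in T24 cells, and at 1.20 with OICR-9429 against 65.6 FPKM with DMSO in UM-UC-3 cells. TK1, the S phase thymidine kinase, had log2 changes of -3.83 and -4.92. MCM7, a subunit of the replicative helicase, had -2.44 and -2.43, and PCNA, the replication clamp, was at 43.1 with OICR-9429 against 213 FPKM with DMSO in T24. CCNE1 and SLBP were the members not called, with log2 changes of -0.97 and -0.79 for CCNE1 and -0.15 and -0.38 for SLBP. The proliferation markers MKI67 and TOP2A, the latter also a listed mitotic target, moved in the same direction. MKI67 was at 3.03 FPKM with OICR-9429 against 61.6 FPKM with DMSO in T24 and at 1.92 FPKM against 68.6 FPKM in UM-UC-3. In these bulk samples, fewer cycling cells and less RNA of these genes per cell cannot be told apart.

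**Figure D4:**
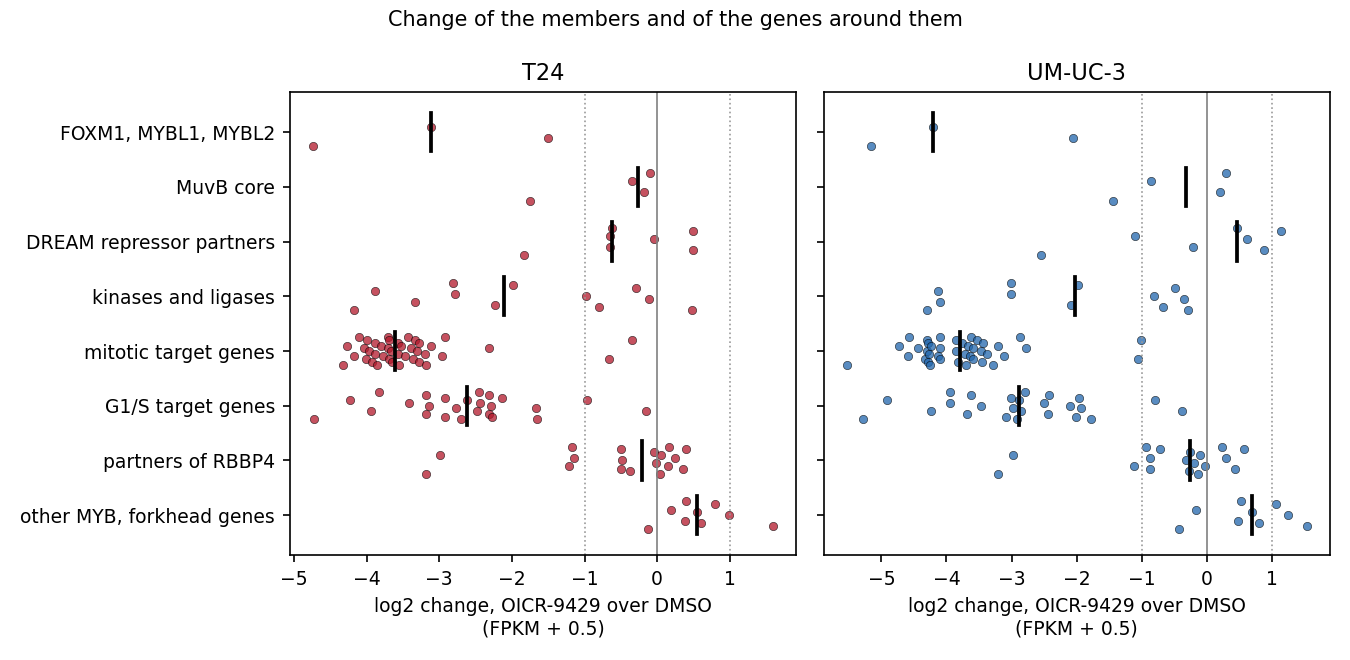
Log2 change, OICR-9429 over DMSO in FPKM + 0.5, of each gene that could be called in T24 (left) and UM-UC-3 (right), by gene list, with black bars at the list medians and dotted lines at the 2-fold limits. The median was -3.61 and -3.80 for mitotic target genes and -0.20 and -0.26 for the partners of RBBP4. The MuvB core had 1 gene, LIN9, beyond the limit in each line, where 13.5% and 12.1% of all genes were called lower.

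RBBP4 also serves PRC2, NuRD, SIN3 and CAF-1, and the genes of those complexes differed among themselves. Of 18 partners, T24 had 5 called lower and UM-UC-3 had 3, beside 13.5% and 12.1% of all genes, with medians of -0.20 and -0.26. The 3 were among the 5 and so were lower in both lines, beside 6.32% of all genes. In limma 2 of the 18 were lower, beside 3.11% of all genes. CHAF1A and CHAF1B, the CAF-1 subunits that load histones behind the replication fork, fell in limma with means of -3.07 (SE 0.29) and -3.10 (SE 0.33) on the log2 scale and adjusted p of 0.0073 and 0.0098. RBBP7, the close relative of RBBP4, was the other gene called lower in both lines, with log2 changes of -1.18 and -1.11 and a limma adjusted p of 0.062. HDAC1 and CHD4, the most abundant of the list, were not called, with log2 changes of -0.48 and -0.88 for HDAC1 and -0.02 and -0.71 for CHD4. The 9 widely expressed forkhead genes gave no call of lower in either line. FOXN3 was called higher in T24 and FOXO3, FOXO4 and FOXK2 in UM-UC-3, beside 6.93% and 14% of all genes. None of the 9 passed limma, beside 3.11% of all genes lower and 0.811% higher. FOXJ3, among the most abundant, was not called, at 21.4 FPKM with OICR-9429 against 16.0 FPKM with DMSO in T24. FOXO3, a forkhead factor of resting cells, was at 12.5 with OICR-9429 against 6.08 FPKM with DMSO in T24 cells, and at 25.3 with OICR-9429 against 10.4 FPKM with DMSO in UM-UC-3 cells. FOXM1 was the only forkhead gene among those listed that was called lower. No such call among the 9 others is near the share of all genes.

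The genes whose pattern over the 4 libraries lay nearest to each activator were sought among 10434 genes of at least 1 FPKM in both DMSO libraries, by Euclidean distance of log2(FPKM + 0.5) centred on each gene's mean. For FOXM1 they were RAD54L (distance 0.16), PLK1 (0.21) and PKMYT1 (0.29). RAD54L, a recombination repair gene, was at 1.04 with OICR-9429 against 11.2 FPKM with DMSO in T24 cells, and at 0.437 with OICR-9429 against 15.5 FPKM with DMSO in UM-UC-3 cells, with the same crossing of the lines as FOXM1. For MYBL2 they were AURKB (0.39), SPC25 (0.41) and RRM2 (0.43). For MYBL1 they were OAS3 (0.26), SDC1 (0.41) and FHL2 (0.53), none of them in the cell cycle lists. OAS3, an interferon-induced gene, was at 8.37 with OICR-9429 against 25.3 FPKM with DMSO in T24 cells, and at 23.6 with OICR-9429 against 102 FPKM with DMSO in UM-UC-3 cells, and like MYBL1 it was higher in UM-UC-3 in both conditions. MYBL1 itself lay at a distance of 2.86 from FOXM1 and 4.37 from MYBL2. These distances rest on 4 libraries and are a description.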

How the data were processed

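RNA of both cell lines was sequenced in 4 libraries. The authors deposited 1 table of FPKM values per library. Per the labels, HISAT2 2.1.0, HTSeq 0.6.1 and bcl2fastq 2.19.1 were among the submitters' tools, with hg19 as the build named in their notes. The exon lengths behind the FPKM values match GENCODE 29, an annotation of GRCh38, with which 29029 of 31319 genes (92.7%) gave whole reads in all libraries at a tolerance of 1e-06. Chromosomes and overlaps come from that release, and 240 gene identifiers were not in it. The labels give 140 µM, while the column headings of the treated libraries carry a different, unexplained number. For this experiment the study's methods give n = 4 without saying of what, and whether the cells of a group came from 1 culture or were pooled is not stated.

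FPKM is not a count, so no count test was used. Calls needed a fold of at least 2 in FPKM + 0.5 and an FPKM of at least 1 in either library. limma 3.58.1 (R 4.3.3; lmFit, eBayes with trend) was fitted to log2(FPKM + 0.5) of the 12584 genes that reached 1 FPKM in 2 libraries or more, with cell line as a block, since treated and DMSO libraries pair by line. The p-values were adjusted by Benjamini-Hochberg over all genes tested, with a threshold of 0.05. They measure the mean change against the disagreement of the lines, with the spread moderated across genes. The pseudocount shrinks the fold changes of low genes. Fold intervals are exact conditional binomial 95% intervals on worked-back reads and cover counting error only. The members and gene lists were chosen with earlier results of these data known, so the list counts are not independent evidence. The lists overlap, with CCNA2, CDK1, PLK1, TOP2A, PCNA and CHAF1A among the genes in more than 1 of them. Named are the 8 members, the 2 most abundant and the 2 most changed genes of each list, neighbours, nearest patterns, and exceptions chosen after their values were seen. Alternatives were other pseudocounts, minimums, fold limits and scalings, eBayes without trend, no cell line term and 1 line alone. The values of 1 listed gene are not reported here. The scripts were tested on simulated data. Python 3.11.15, numpy 2.4.6, pandas 2.3.3, scipy 1.17.1 and matplotlib 3.10.9 were used.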

Additional observations from a re-analysis of the deposited data

Results flagged for a closer look

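Of 53 genes compared between the lines (the 8 genes, the named list and marker genes, the DREAM partners and the neighbours), 12 had a log2 change of opposite sign in T24 and UM-UC-3. The share of all genes with opposite signs was not worked out, so this count cannot be read as particular to these genes. The difference between the lines was not tested, because each line had 1 library per condition. The change in UM-UC-3 minus that in T24 was 0.64 for LIN52 and 0.30 for LIN54, the 2 core subunits among them. It was 0.51 for E2F4 and 1.24 for RBL2, partners of MuvB in DREAM, and -1.15 for CCND1, which encodes cyclin D1. Among neighbours it was 0.37 for ITFG2, 1.88 for TULP3, 1.55 for ALDH6A1 and 1.35 for THAP9. Among markers it was -2.19 for VIM and -1.98 for FN1, and -0.52 for PECAM1, which was too low to be called or tested. None of the others passed limma for a change shared by both lines.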

How the results depend on the processing

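Of the alternatives tried for each line, a fold of at least 4 moved the count of the 8 genes called lower to 2 in T24, MYBL2 and FOXM1, and to 3 in UM-UC-3, against 4 in each as reported. An FPKM minimum of 5 gave 3 in each line, and a fold of at least 1.5 gave 5 in UM-UC-3. Over all genes, T24 gave 990 lower and 486 higher calls at an FPKM minimum of 5, 3432 and 1953 at a fold of at least 1.5, and 415 and 131 at a fold of at least 4. The same settings gave UM-UC-3 1011 lower and 1089 higher calls, then 2920 and 3613, then 421 and 316.

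In limma, 4 of the 8 genes were lower under median-ratio scaling and 4 under trimmed mean scaling (FOXM1, MYBL1, MYBL2 and LIN9), against 2 as reported. All genes then gave 217 higher under median-ratio scaling, and 655 lower and 288 higher under trimmed mean scaling. A pseudocount of 0.1 gave 170 higher, with 3 of the 8 genes lower (MYBL1 added, adjusted p 0.036), and eBayes without trend 56 higher. An FPKM of at least 1 in all 4 libraries left 2 of the 8 lower, FOXM1 and LIN9 (adjusted p 0.038 for LIN9), and left MYBL1 and MYBL2 out of the test. Without an FPKM minimum, 0 of 31319 genes were lower and 0 higher, the 8 genes included, with 2932 at an unadjusted p under 0.05. Without the replicate block by cell line, limma gave 0 lower and 0 higher, the 8 genes included, with 1062 at an unadjusted p under 0.05. The cause of these moves was not tested. Median-ratio scaling moved the median change of all genes in T24 to -0.05, against -0.15 as deposited.

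Over the alternatives in which each was tested, FOXM1 and MYBL2 kept their direction, with adjusted p of 0.00086 to 0.31 and 0.00047 to 0.25 in limma. MYBL1 and LIN9 kept theirs, with 0.020 to 0.72 and 0.026 to 0.49. With 1 line alone, LIN52 ranged between -0.34 (without UM-UC-3) and 0.30 (without T24), and LIN54 between -0.10 (without UM-UC-3) and 0.20 (without T24), so that each reversed once against the mean over both lines. With 1 library per condition, the spread between cultures is unknown, and LIN37, at 9 to 61 reads, is too shallow for a comparison in T24.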
